A study of Mus musculus with 8 samples.

Results

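The genes described here build, control or clear the protein folding machinery of the endoplasmic reticulum (ER). They are 42 genes chosen by name for this function, with earlier results of these data known. They cover ER chaperones, their J-domain co-chaperones and small stress-induced factors, and disulfide and prolyl folding enzymes. The ER-associated degradation (ERAD) machinery is covered too, as are the sensors and transcription factors of the unfolded protein response. Of the 42 genes, 41 had a probe set of their own among 22180 such genes on the array, and 40 were bright enough to be tested beside 13308 genes in all. The exceptions were Pdia4, read only through a probe set that it shares with Mir704, and Derl3, whose mean log2 level lay below the limit of 2.30 used for testing.

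Cells were C2C12, 1 established line of mouse myoblasts that can be fused into myotubes, and all groups had received a retrovirus and been differentiated. Control cells (Scrb) carried the siScramble retrovirus and knockdown cells (SiBc) the siBaf60c retrovirus, whose shRNA targets Baf60c, the Smarcd3 product, which is part of a chromatin remodelling complex. Each cell type spent 12 h in either 1 mM glucose (LG) or 10 mM glucose (HG), and each of the 4 groups has 2 biological replicates, 1 Affymetrix Mouse Gene ST 2.1 array each. Expression is on the log2 scale of the deposited values, so a difference of 1 is a doubling, and values are given in the order replicate 1, replicate 2.

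Proteins that enter the secretory pathway fold in the lumen of the ER with the help of chaperones and oxidising enzymes, and those that fail are drawn back across the membrane, ubiquitinated and degraded by the proteasome, which is ERAD. When unfolded protein accumulates, the membrane sensors IRE1 (encoded by Ern1), ATF6 and PERK (encoded by Eif2ak3) start the unfolded protein response. IRE1 splices Xbp1 mRNA so that it encodes an active transcription factor, ATF6 is cut to release another, and both raise transcription of chaperone and ERAD genes, while PERK slows translation and favours Atf4 and its target Ddit3. Glucose supplies the sugars for N-linked glycosylation in the ER, and glucose deprivation was the setting in which the glucose-regulated chaperones were first named.

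The arrays were checked first. Replicates correlated at 0.987 to 0.99 across genes, and the largest gap between replicates of any member was 0.68 (Ero1b in knockdown cells at 1 mM). Array medians lay between 5.89 and 6.02, which says little about array quality, since the deposited values had been fitted to a common distribution. The probe set shared by Smarcd3 and Chpf2 was lower with knockdown at 1 mM (-2.62, adjusted p = 0.00313) and at 10 mM (-1.98, adjusted p = 0.0171). It was also higher at 10 mM than at 1 mM glucose in knockdown cells (1.31, adjusted p = 0.00442). In control cells that glucose change was 0.67 (adjusted p = 0.06). Mean levels of 11 myotube markers were 9.20 to 9.32 in control cells at 1 mM and 9.90 to 10.0 at 10 mM, against 7.96 to 8.07 and 8.97 to 9.11 in knockdown cells. The mean of 6 fibroblast markers, of which 5 rose with glucose in each cell type, was 7.11 to 7.28 at 1 mM and 8.34 to 8.65 at 10 mM in control cells, and 7.14 to 7.23 and 8.42 to 8.45 in knockdown cells. Of 7 markers of undifferentiated myoblasts 2 rose and 2 fell with glucose in each cell type, and their mean was 6.09 to 6.17 and 5.99 to 6.14 in control and 6.08 to 6.11 and 5.79 to 5.97 in knockdown cells. Macrophage, adipocyte and plasma cell markers averaged 2.59 to 3.19, with 3, 3 and 4 of each 6 under the limit for testing. In such bulk RNA, fewer cells of a type and less RNA per cell cannot be told apart, and the part of these marker differences in the results below was not tested.

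Levels of the ER genes were much lower at 10 mM than at 1 mM glucose, in both cell types. In control cells 32 of the 40 tested genes fell and 0 rose, where 12.1% of all 13308 genes fell and 13.2% rose. In knockdown cells 33 fell and 1 rose, where 10.6% of all genes fell and 14.5% rose. The median change was -1.24 in control and -1.20 in knockdown cells, beside -0.01 and 0.03 over all genes tested. In each cell type 24 of the 40 fell by at least 2-fold, beside 535 of all 13308 genes in control and 517 in knockdown cells. A gene is said to have risen or fallen when limma's moderated test gave an adjusted p under 0.05 over all genes tested. The median standard error (SE) of a glucose change over the 40 genes was 0.14, and errors below are SE.

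**Figure D1:**
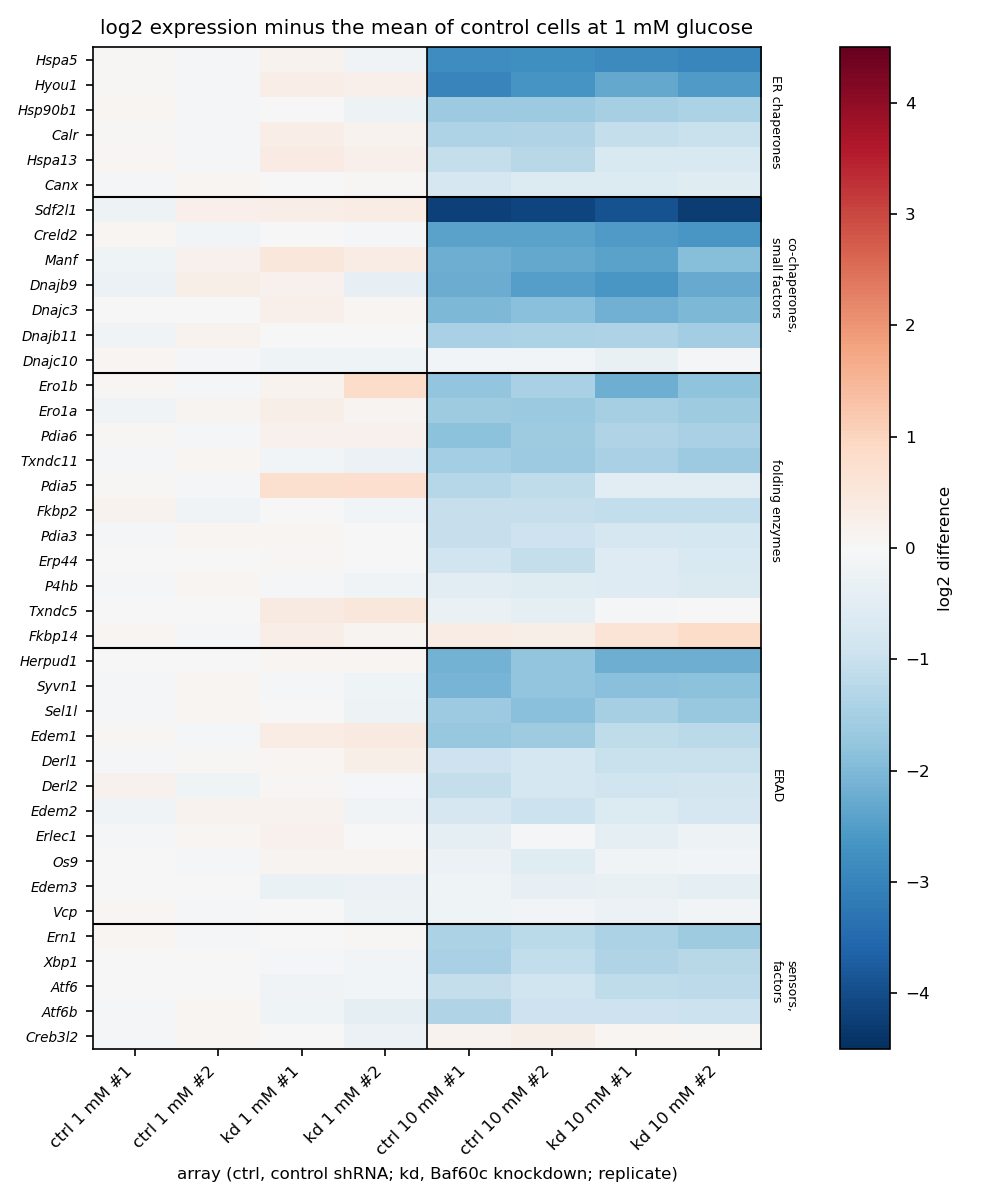
Heat map of log2 expression of the 40 tested genes (rows, grouped by role) on each of the 8 arrays (columns; ctrl, control cells; kd, knockdown cells), as the difference from the mean of control cells at 1 mM glucose. The 4 arrays at 10 mM are blue for most genes, deepest for Sdf2l1, while the knockdown arrays at 1 mM are close to white.

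Every array at 10 mM lay below every array at 1 mM, 4 against 4, for 35 of the 40 genes, an order seen in 16.7% of all genes. The opposite order was seen in 0 of the 40 and in 18% of all genes. The 32 genes that fell in control cells also fell in knockdown cells, which is 100% of the first list and 97% of the second, and over all genes 64.8% of the falls in control cells were falls in knockdown cells. These 2 comparisons share no arrays, but they come from the same model, which gives each gene the same SE in both. Their calls are therefore not independent. Across the 40 genes the changes in the 2 cell types had a Pearson r of 0.97, which is given as a description because genes are not independent and both changes are read by the same probes.

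Promoters are shown before the single genes because several of these genes share one sequence element. The ER stress response element (ERSE) is known as the binding site of NF-Y at its CCAAT and of ATF6 and spliced XBP1 at its CCACG. It was searched as CCAAT and CCACG 9 bases apart, on both strands, in the 250 bases before each start site in RefSeq's promoters of mouse assembly GRCm38.p6. That table held 36 of the 42 genes and not Hyou1, Hspa13, Manf, Derl1, Erlec1 or Atf6. An exact ERSE was present in 10 of the 36 genes (27.8%), and in 35 of all 27025 genes of the table (0.13%). The genes were chosen for ER folding and its stress response, so this difference in shares is a description and was not tested. The matches, written on the strand that reads CCAAT to CCACG with these letters in capitals, were the following.
Hspa5: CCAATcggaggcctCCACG
Hsp90b1, upstream match: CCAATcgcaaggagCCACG
Hsp90b1, downstream match: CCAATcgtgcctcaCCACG
Calr: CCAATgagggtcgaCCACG
Canx: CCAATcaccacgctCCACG
Creld2: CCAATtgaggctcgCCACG
Dnajc3: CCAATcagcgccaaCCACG
Ero1b: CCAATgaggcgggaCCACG
Pdia6: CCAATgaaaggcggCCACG
Syvn1: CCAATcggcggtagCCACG
Derl3: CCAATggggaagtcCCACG

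The bases between CCAAT and CCACG differ from gene to gene. The element lay on the strand of the gene in Hspa5, Canx, Dnajc3, Pdia6 and Syvn1, on the opposite strand in Calr, Creld2, Derl3 and Ero1b, and once on each strand in Hsp90b1. The Hspa5 element spans -65 to -47 from the start site, that of Syvn1, the nearest, -44 to -26, and the farther one of Hsp90b1 -212 to -194. All 4 ER chaperones in the table held an exact ERSE, as did 2 of 6 co-chaperones and small factors, 2 of 12 folding enzymes, 2 of 10 ERAD genes and 0 of 4 sensors and transcription factors. The related ERSE-II, searched as ATTGG and CCACG 1 base apart, was found in Herpud1 alone among the 36 genes (2.78%, against 0.037% of all genes). That share rests on 1 gene of a list chosen for this function, and was not tested.
Herpud1: ATTGGgCCACG

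**Figure D2:**
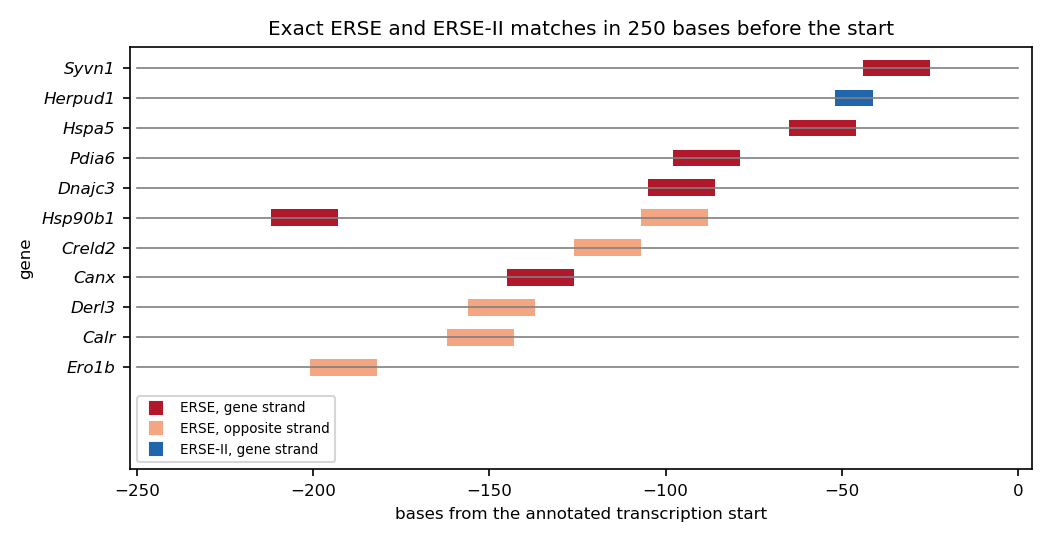
Positions of exact ERSE matches (red on the strand of the gene, light red on the opposite strand) and of the ERSE-II match (blue) in the 250 bases before the annotated start of 11 genes, with the distance from the start in bases on the x axis. The match nearest to the start is that of Syvn1, and Hsp90b1 is the gene with 2 matches.

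Shorter motifs were present in larger shares of all genes. The UPRE core TGACGTG, known to be bound by XBP1, was in 4 of the 36 genes (11.1%; Hspa5, Txndc11, Txndc5 and Vcp) and in 1.85% of all genes. The core of the amino acid response element, TGATGNAA, known from ATF4 targets, was in 2 (5.56%; Herpud1 and Txndc5) and in 3.91% of all genes. CCACG alone, which is part of ERSE and ERSE-II, was in 27 of the 36 (75%) and in 31.0% of all genes. These matches are letters found in a window, and binding was not measured.

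The promoters of the genes below that hold an ERSE and whose values are given on all arrays are shown 5′ to 3′ on the strand of the gene, 250 bases each, with the element in capitals. Where the element is on the opposite strand it reads CGTGG to ATTGG.
Hspa5 (chr2:34771840-34772089, plus strand): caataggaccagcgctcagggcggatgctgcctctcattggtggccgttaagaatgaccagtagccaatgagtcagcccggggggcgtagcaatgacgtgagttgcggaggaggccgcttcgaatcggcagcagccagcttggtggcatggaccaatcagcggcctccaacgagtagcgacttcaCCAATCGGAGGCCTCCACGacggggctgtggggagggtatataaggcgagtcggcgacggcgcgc
Hsp90b1 (chr10:86705445-86705694, minus strand): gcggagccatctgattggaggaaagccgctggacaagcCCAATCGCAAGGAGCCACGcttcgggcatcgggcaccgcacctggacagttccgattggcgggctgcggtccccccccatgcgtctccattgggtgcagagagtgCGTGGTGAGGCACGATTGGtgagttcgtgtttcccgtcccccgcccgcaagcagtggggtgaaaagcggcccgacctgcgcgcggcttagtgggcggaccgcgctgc
Creld2 (chr15:88819396-88819645, plus strand): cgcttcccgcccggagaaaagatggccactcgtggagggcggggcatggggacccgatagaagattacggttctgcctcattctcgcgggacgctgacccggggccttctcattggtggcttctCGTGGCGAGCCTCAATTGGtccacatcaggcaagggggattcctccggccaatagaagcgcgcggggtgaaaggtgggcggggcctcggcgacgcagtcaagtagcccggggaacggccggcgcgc
Ero1b (chr13:12565633-12565882, plus strand): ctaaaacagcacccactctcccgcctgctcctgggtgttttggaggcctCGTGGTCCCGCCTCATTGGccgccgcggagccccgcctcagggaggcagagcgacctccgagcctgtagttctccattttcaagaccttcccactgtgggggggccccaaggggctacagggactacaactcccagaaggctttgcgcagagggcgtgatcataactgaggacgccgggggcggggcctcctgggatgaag
Pdia6 (chr12:17266339-17266588, plus strand): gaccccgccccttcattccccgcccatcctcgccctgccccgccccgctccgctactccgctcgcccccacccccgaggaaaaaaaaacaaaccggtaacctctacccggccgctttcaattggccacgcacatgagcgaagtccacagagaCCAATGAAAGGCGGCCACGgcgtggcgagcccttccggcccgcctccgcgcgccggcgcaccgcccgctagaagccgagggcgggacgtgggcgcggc
Syvn1 (chr19:6046326-6046575, plus strand): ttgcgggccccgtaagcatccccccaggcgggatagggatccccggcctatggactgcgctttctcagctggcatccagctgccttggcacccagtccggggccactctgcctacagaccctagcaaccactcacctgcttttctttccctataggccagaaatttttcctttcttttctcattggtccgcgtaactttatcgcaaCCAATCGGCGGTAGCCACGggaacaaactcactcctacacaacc

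Of the genes in the promoter table with an exact ERSE or ERSE-II match, 10 were tested and all 10 fell in both cell types. Their median change was -1.82 in control and -1.99 in knockdown cells. Of the 24 tested genes without an exact match, 17 fell in control and 18 in knockdown cells, with medians of -1.0 and -0.82. The most extreme changes, -4.17 and -4.43, were at Sdf2l1. In control cells the ranges overlapped, from -2.78 to -0.69 with and from -4.17 to 0.29 without an exact match. Variants of the element and elements outside the 250 bases were not searched, so a gene without a match may still hold one. The difference between these gene groups was not tested.

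ER chaperones hold unfolded chains in the lumen, and all 6 tested fell in both cell types, with a median of -1.50 in control and -1.30 in knockdown cells. Hspa5, which encodes BiP, the main Hsp70 of the ER and the partner that keeps the sensors inactive, read 10.54 and 10.45 in control cells at 1 mM and 7.71 and 7.72 at 10 mM. In knockdown cells it read 10.65 and 10.32, then 7.62 and 7.57. The arrays at the 2 glucose levels are far apart and those of the 2 cell types overlap at 1 mM. Hspa5 was 6.84-fold lower at 10 mM in control cells (-2.78 ± 0.15, adjusted p = 9.41e-05) and 7.43-fold lower in knockdown cells (-2.89 ± 0.15, adjusted p = 8.17e-05).

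Hyou1, an Hsp110-type nucleotide exchange factor for BiP, read 10.70 and 10.61 in control cells at 1 mM and 7.67 and 8.0 at 10 mM, and 10.95 and 10.88, then 8.36 and 8.10, in knockdown cells. It fell 7.06-fold in control (-2.82 ± 0.16, adjusted p = 0.000113) and 6.44-fold in knockdown cells (-2.69 ± 0.16, adjusted p = 0.000137). Both glucose levels were slightly higher in knockdown cells, a difference that did not pass the test (0.33 ± 0.11 averaged over glucose, adjusted p = 0.169).

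Hsp90b1, the Hsp90 of the ER, read 12.80 and 12.61 in control cells at 1 mM, 11.08 and 11.07 at 10 mM, and 12.69 and 12.47, then 11.19 and 11.29, in knockdown cells. It fell 3.09-fold (-1.63 ± 0.14, adjusted p = 0.00044) and 2.53-fold (-1.34 ± 0.14, adjusted p = 0.000734). The lectin chaperones, which hold glycoproteins by their trimmed sugars, moved unequally. The soluble one, Calr, fell, with changes of -1.38 in control and -1.25 in knockdown cells, and so did the membrane-bound one, Canx (-0.69 and -0.61). Hspa13, a microsomal Hsp70-like ATPase, fell too (-1.15 and -0.97). The Canx calls were the least firm of the 6, with an adjusted p of up to 0.0572 in control and 0.0856 in knockdown cells when single arrays of the cell type were left out.

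J-domain proteins stimulate the ATPase of BiP, and the small factors grouped with them are induced by ER stress. Of 7 tested, 6 fell in each cell type, with medians of -2.24 and -2.35. Sdf2l1, which forms a complex with Dnajb11, had the largest change of all 40 genes. It read 9.44 and 9.92 in control cells at 1 mM and 5.47 and 5.56 at 10 mM, and 9.99 and 10.03, then 5.76 and 5.40, in knockdown cells. It was 18-fold lower in control (-4.17 ± 0.20, adjusted p = 6.57e-05) and 21.5-fold lower in knockdown cells (-4.43 ± 0.20, adjusted p = 5.33e-05).

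Creld2, an ER-resident and secreted factor with disulfide isomerase activity, read 10.68 and 10.47 in control cells at 1 mM and 8.18 and 8.18 at 10 mM, and 10.61 and 10.53, then 8.03 and 7.95, in knockdown cells. It fell 5.28-fold (-2.40 ± 0.13, adjusted p = 0.000108) and 5.97-fold (-2.58 ± 0.13, adjusted p = 8.17e-05). Manf, a secreted factor that is retained in the ER by BiP, read 5.38 and 5.79, then 3.40 and 3.28, in control cells, and 6.09 and 5.92, then 3.18 and 3.65, in knockdown cells. It fell 4.73-fold (-2.24 ± 0.21, adjusted p = 0.000543) and 6.02-fold (-2.59 ± 0.21, adjusted p = 0.000284), but its levels at 10 mM are close to the limit for testing, where differences on this scale are compressed.

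Among the J-domain proteins proper, the falls were graded. Dnajb9, which recruits BiP to IRE1 and to ERAD clients, fell 5.14-fold and 5.08-fold with the largest error of the group (-2.36 ± 0.26 and -2.35 ± 0.26). Dnajc3, a co-chaperone of BiP also known as an inhibitor of PERK, fell 3.87-fold and 4.75-fold, and Dnajb11 2.71-fold and 2.77-fold. Dnajc10, a J-domain protein with thioredoxin domains that reduces disulfides of ERAD clients, stood apart. Its 8 values ran from 9.38 to 9.82, the glucose levels overlapped in knockdown cells, and the changes were -0.12 ± 0.14 (adjusted p = 0.598) and -0.02 ± 0.14 (adjusted p = 0.935).

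**Figure D3:**
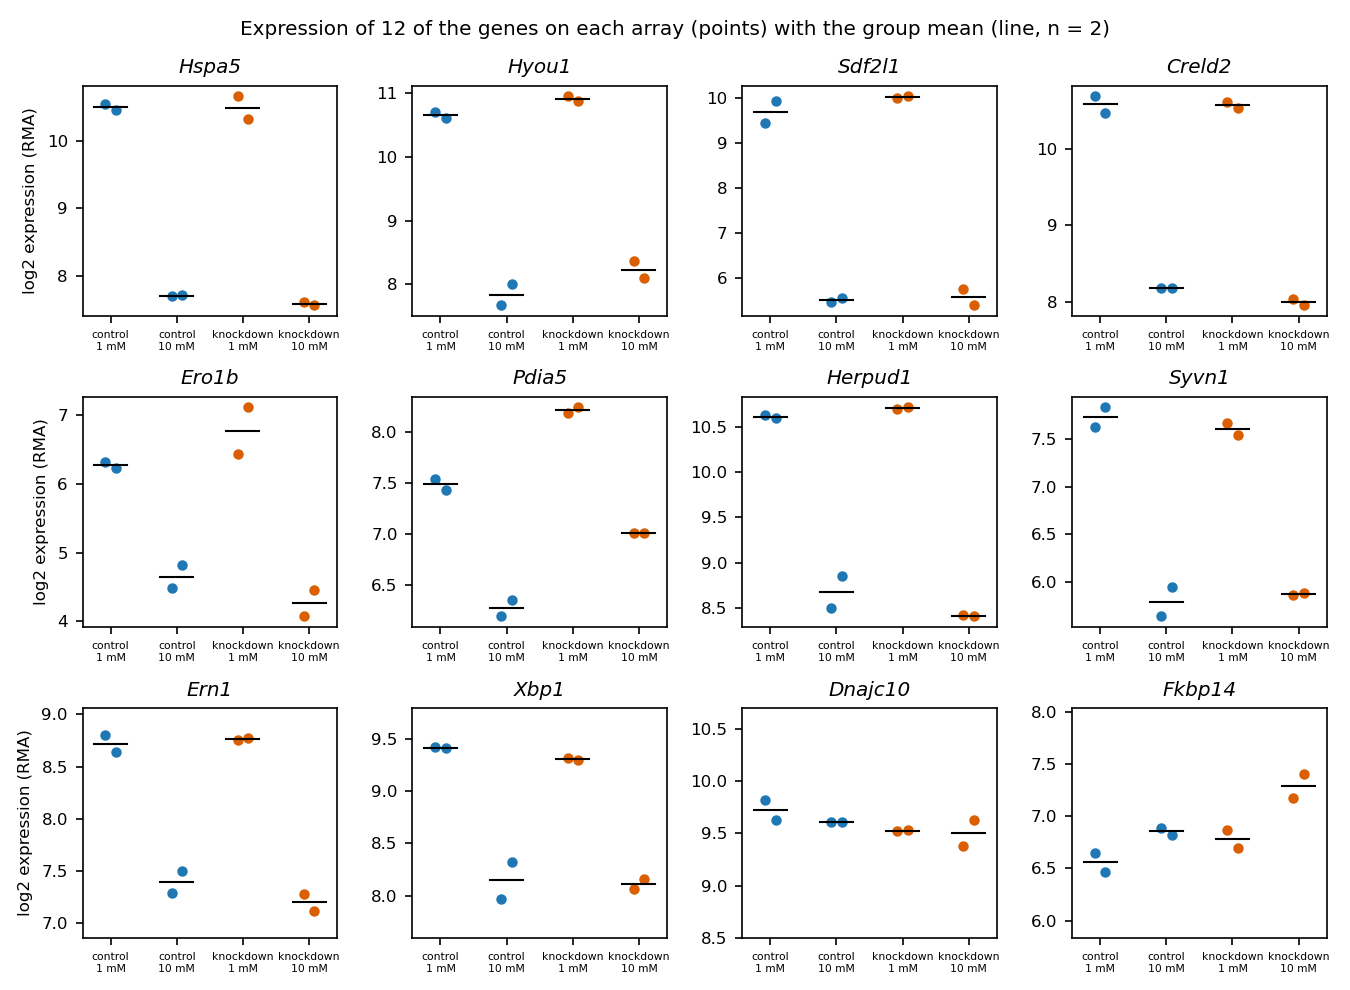
Log2 expression of 12 of the genes on each array (points; blue, control cells; orange, knockdown cells) with the group mean of 2 arrays (line), each panel on its own y axis. Hspa5, Hyou1, Sdf2l1, Creld2, Ero1b, Herpud1, Syvn1, Ern1 and Xbp1 are lower at 10 mM in both cell types, Pdia5 is also higher in knockdown cells and Dnajc10 stays between 9.38 and 9.82. Fkbp14 is slightly higher at 10 mM, a change that passed the test in knockdown cells only and was lost in most alternatives.

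Folding enzymes form, shuffle or break disulfides and isomerise prolines. Of 11 tested, 9 fell in control cells and 10 in knockdown cells, where 1 rose, and the median was -1.03 in both. The oxidases that recharge protein disulfide isomerase were among the largest. Ero1a read 11.36 and 11.65, then 9.90 and 9.84, in control cells and 11.79 and 11.63, then 10.00 and 9.91, in knockdown cells, a fall of 3.11-fold (-1.64 ± 0.15, adjusted p = 0.000497) and 3.36-fold (-1.75 ± 0.15, adjusted p = 0.000327). Its second probe set gave -1.36 (adjusted p = 0.0376) and -1.73 (adjusted p = 0.0153).

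Ero1b, its paralogue, read 6.31 and 6.23, then 4.48 and 4.82, in control cells and 6.43 and 7.11, then 4.07 and 4.45, in knockdown cells. The fall was 3.07-fold in control (-1.62 ± 0.25, adjusted p = 0.00384) and 5.67-fold in knockdown cells (-2.50 ± 0.25, adjusted p = 0.000607). The second knockdown array at 1 mM was the highest and lay 0.68 above its replicate. The difference between the 2 falls did not pass the test (-0.88 ± 0.35, adjusted p = 0.599).

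Pdia6, a disulfide isomerase that also binds IRE1, read 10.94 and 10.84, then 9.04 and 9.30, in control cells and 11.09 and 11.09, then 9.54 and 9.42, in knockdown cells. It fell 3.30-fold (-1.72 ± 0.14, adjusted p = 0.000318) and 3.05-fold (-1.61 ± 0.14, adjusted p = 0.000372). Other oxidoreductases formed a series. All of the following fell, with changes given for control and then for knockdown cells. Txndc11 changed by -1.57 and -1.38 and Pdia5 by -1.22 and -1.21. Pdia3, which works with calnexin and calreticulin on glycoproteins, changed by -0.98 and -0.80. Erp44, which retains the oxidases in the ER, changed by -0.98 and -0.68, and P4hb, the founding disulfide isomerase, by -0.51 and -0.49. The P4hb calls were lost in some alternatives, with an adjusted p of up to 0.121 in control and 0.131 in knockdown cells, and the Erp44 call in knockdown cells when replicate 2 at 10 mM was left out (adjusted p = 0.0592).

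Txndc5, a thioredoxin-domain disulfide isomerase, read 9.05 and 9.04, then 8.74 and 8.64, in control cells and 9.46 and 9.54, then 8.94 and 9.01, in knockdown cells. Every array at 10 mM was below its own cell type at 1 mM, by -0.35 ± 0.12 in control cells, which did not pass the test (adjusted p = 0.0735), and by -0.53 ± 0.12 in knockdown cells, which did (adjusted p = 0.0177). The difference between the 2 changes was -0.18 ± 0.17 (adjusted p = 0.843). The knockdown call was lost when any 1 array of knockdown cells was left out, with an adjusted p of up to 0.103.

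The prolyl isomerases went in different directions. Fkbp2 fell, by -1.03 in both cell types. Fkbp14, which acts on procollagens, read 6.65 and 6.47, then 6.89 and 6.82, in control cells and 6.87 and 6.70, then 7.17 and 7.40, in knockdown cells, and was the 1 gene of the 40 with a call upward. Its change was 0.29 ± 0.15 in control (adjusted p = 0.184) and 0.50 ± 0.15 in knockdown cells (adjusted p = 0.0427). That call was lost without any 1 of the 8 arrays and in several other alternatives, with an adjusted p of up to 0.211. Fkbp14 moved in the direction of the fibroblast markers, which were higher at 10 mM in both cell types, and their part in it was not tested.

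Pdia4, a BiP-associated disulfide isomerase, can be given only for the probe set it shares with Mir704, so its reads cannot be assigned to it alone. That probe set read 9.39 and 9.26, then 7.02 and 7.52, in control cells and 9.59 and 9.36, then 7.76 and 7.77, in knockdown cells. It fell 4.16-fold (-2.05 ± 0.19, adjusted p = 0.000517) and 3.27-fold (-1.71 ± 0.19, adjusted p = 0.000859) and is not counted among the 40.

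**Figure D4:**
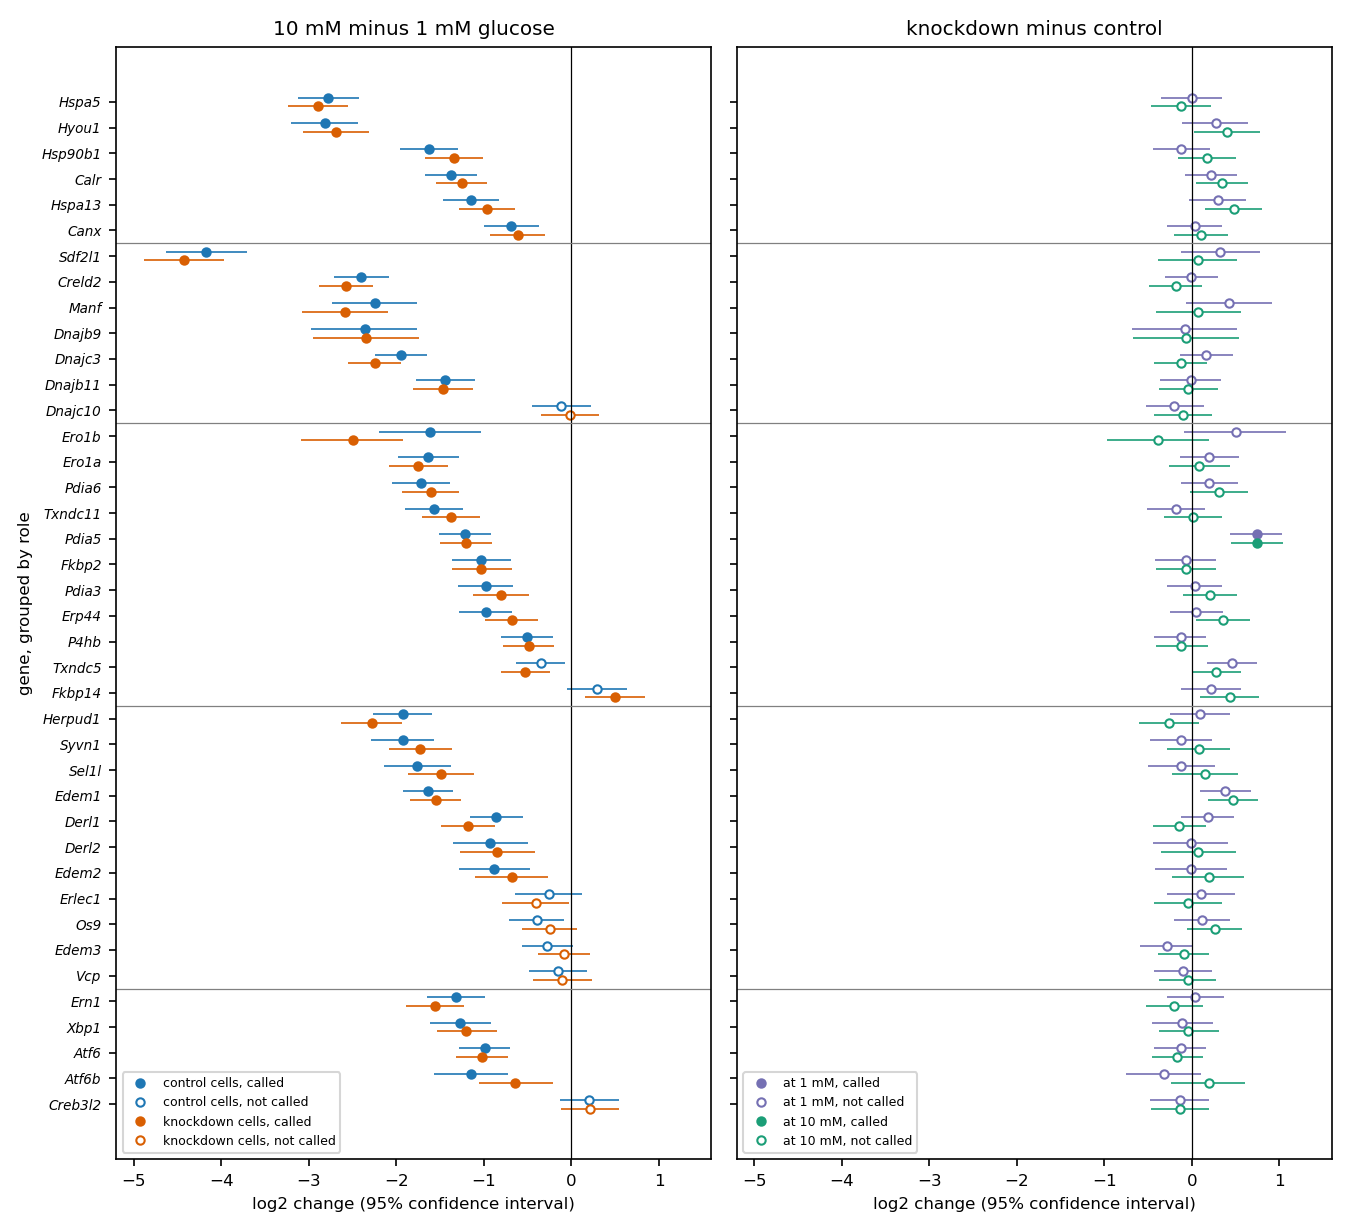
Log2 change with its 95% confidence interval for each of the 40 tested genes, grouped by role: 10 mM minus 1 mM glucose in control (blue) and knockdown cells (orange) on the left, and knockdown minus control at 1 mM (purple) and 10 mM (green) on the right; filled points passed the test. On the left 32 and 33 genes are filled below 0, and on the right the filled points are those of Pdia5.

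In ERAD, a lectin and mannosidase step marks misfolded glycoproteins, a membrane complex moves them out and a cytosolic ATPase pulls. Of 11 tested genes 7 fell in each cell type, with medians of -0.88 and -0.85, and the largest falls in both were those of Herpud1 and Syvn1. Herpud1, which assembles that complex, read 10.63 and 10.59, then 8.50 and 8.85, in control cells and 10.69 and 10.71, then 8.43 and 8.41, in knockdown cells. It fell 3.82-fold (-1.93 ± 0.15, adjusted p = 0.000252) and 4.87-fold (-2.28 ± 0.15, adjusted p = 0.000154).

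Syvn1, the ubiquitin ligase Hrd1 at the centre of the complex, read 7.63 and 7.83, then 5.64 and 5.95, in control cells and 7.67 and 7.54, then 5.86 and 5.89, in knockdown cells. It fell 3.82-fold (-1.93 ± 0.15, adjusted p = 0.000301) and 3.32-fold (-1.73 ± 0.15, adjusted p = 0.000398). Its scaffold partner Sel1l read 10.42 and 10.60, then 8.89 and 8.62, in control cells and 10.52 and 10.27, then 9.0 and 8.81, in knockdown cells, a fall of 3.39-fold (-1.76 ± 0.16, adjusted p = 0.000538) and 2.81-fold (-1.49 ± 0.16, adjusted p = 0.000846). Both partners were thus lower on every array at 10 mM than on any at 1 mM. The derlins, membrane proteins of the exit channel, also fell, with changes of -0.86 and -1.18 for Derl1 and of -0.93 and -0.85 for Derl2. Derl3 had values of 1.83 to 2.35 on the 8 arrays and was too dim to test.

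The mannosidase-like proteins split. Edem1 read 9.03 and 8.95, then 7.29 and 7.40, in control cells and 9.31 and 9.41, then 7.85 and 7.78, in knockdown cells, and fell 3.12-fold (-1.64 ± 0.12, adjusted p = 0.000252) and 2.92-fold (-1.55 ± 0.12, adjusted p = 0.000284). Edem2 fell with changes of -0.88 and -0.68. Edem3 read 8.47 and 8.48, then 8.30 and 8.10, in control cells and 8.17 and 8.21, then 8.13 and 8.08, in knockdown cells, with changes of -0.28 ± 0.13 (adjusted p = 0.153) and -0.08 ± 0.13 (adjusted p = 0.692). The calls of Derl2 and Edem2 were lost when some single arrays were left out, and that of Derl2 in control cells also with the mean of its probe sets, with an adjusted p of up to 0.055 and 0.0654 in control and of up to 0.074 and 0.135 in knockdown cells.

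The lectins that deliver trimmed glycoproteins did not pass the test in either cell type. Os9 read 8.74 and 8.67, then 8.45 and 8.18, in control cells (-0.39 ± 0.13, adjusted p = 0.0728) and 8.82 and 8.83, then 8.56 and 8.59, in knockdown cells (-0.25 ± 0.13, adjusted p = 0.222). Erlec1 read 8.05 and 8.21, then 7.70 and 8.03, in control cells (-0.26 ± 0.16, adjusted p = 0.286) and 8.31 and 8.15, then 7.73 and 7.91, in knockdown cells (-0.41 ± 0.16, adjusted p = 0.111). For both genes the arrays at 10 mM lay below those at 1 mM within each cell type, by amounts that did not pass the test.

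Vcp, the cytosolic ATPase that extracts ERAD clients and has many other substrates, read 10.58 and 10.41, then 10.32 and 10.36, in control cells and 10.51 and 10.28, then 10.22 and 10.36, in knockdown cells. The 2 glucose levels overlapped in knockdown cells. Changes were -0.15 ± 0.14 (adjusted p = 0.472) and -0.11 ± 0.14 (adjusted p = 0.643).

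Several ERAD genes have a further probe set, each dimmer than the one used. That of Edem1 had a mean of 1.63, under the limit for testing, and says nothing about its change. That of Derl2, with a mean of 3.03, did not pass the test for glucose (-0.14 ± 0.31 and -0.25 ± 0.31). That of Vcp did not pass it for glucose (0.19 and -0.53) and was higher with knockdown averaged over glucose (0.73 ± 0.16, adjusted p = 0.0498), which the brighter Vcp probe set was not (-0.08 ± 0.10, adjusted p = 0.739). A probe set that Derl2 shares with Mis12 gave -0.56 (adjusted p = 0.0356) and -0.38 (adjusted p = 0.118). The Derl2 and Vcp values therefore depend on the probe set read.

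Of the 5 sensors and transcription factors tested, 4 fell in each cell type, with medians of -1.15 and -1.02. These are mRNA levels, and neither splicing of Xbp1 nor cleavage of ATF6 was measured by these values. Ern1, which encodes IRE1, read 8.80 and 8.64, then 7.29 and 7.50, in control cells and 8.75 and 8.77, then 7.28 and 7.12, in knockdown cells. It fell 2.50-fold (-1.32 ± 0.14, adjusted p = 0.000877) and 2.95-fold (-1.56 ± 0.14, adjusted p = 0.000428).

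Xbp1, the substrate of IRE1, read 9.42 and 9.41, then 7.97 and 8.32, in control cells and 9.32 and 9.30, then 8.06 and 8.16, in knockdown cells, and fell 2.41-fold (-1.27 ± 0.15, adjusted p = 0.00125) and 2.29-fold (-1.20 ± 0.15, adjusted p = 0.00135). Atf6 read 10.09 and 10.11, then 9.02 and 9.20, in control cells and 9.95 and 9.99, then 8.97 and 8.91, in knockdown cells. It fell 1.99-fold (-0.99 ± 0.13, adjusted p = 0.00175) and 2.03-fold (-1.02 ± 0.13, adjusted p = 0.00132). All 3 genes had replicates closer to each other than to any array at the other glucose level.

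Atf6b, the paralogue of Atf6, fell in control cells (-1.15 ± 0.18, adjusted p = 0.00419) and in knockdown cells (-0.64 ± 0.18, adjusted p = 0.039). The gap between the falls, 0.51 ± 0.26, did not pass the test (adjusted p = 0.691). Its knockdown call was lost in 8 of 16 alternatives, with an adjusted p of up to 0.166. Creb3l2, a related ER-anchored factor known for its role in collagen-secreting cells, read 7.89 and 8.08, then 8.15 and 8.23, in control cells and 7.96 and 7.72, then 8.07 and 8.03, in knockdown cells. Its values were slightly higher at 10 mM, with changes of 0.20 ± 0.14 (adjusted p = 0.343) and 0.21 ± 0.14 (adjusted p = 0.333).

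The glucose change was compared between the cell types gene by gene. The interaction, that is the change of knockdown cells less that of controls, was called for 0 of the 40 genes and for 0% of all 13308 genes in limma, where 1 and 1049 had an unadjusted p under 0.05. The 1 gene was Ero1b. Values ran from -0.88 to 0.51, 95% intervals reached from -1.71 to 1.11, and for 37 of the 40 genes the interval lay within -1 to 1. For the other 3 the interval includes a difference of over 2-fold between the cell types.

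Knockdown and control cells were compared at each glucose level and on average, and few genes of any kind were called. At 1 mM glucose 1 of the 40 genes was higher and 0 lower, beside 0.233% and 1.25% of all genes. At 10 mM it was again 1 higher and 0 lower, beside 0.428% and 0.691%. Averaged over both glucose levels 2 were higher and 0 lower, beside 1.6% and 2.71%. Medians were 0.03, 0.07 and 0.02, and values ran from -0.32 to 0.74 at 1 mM and from -0.39 to 0.74 at 10 mM. In limma 3, 7 and 8 of the 40 genes had an unadjusted p under 0.05. Over all 13308 genes the counts were 2115, 1807 and 2617. As a share, the count of the 40 was below that of all genes at 1 mM, somewhat above it at 10 mM and close to it on average. These differences in share were not tested.

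The gene called at each glucose level was Pdia5, a disulfide isomerase of the ER. Control cells read 7.54 and 7.43 at 1 mM and 6.19 and 6.35 at 10 mM. Knockdown cells read 8.19 and 8.24, then 7.01 and 7.01. The cell types did not overlap at either level, and the glucose fall was nearly the same size in both. Pdia5 was 1.66-fold higher with knockdown at 1 mM (0.74 ± 0.13, adjusted p = 0.0402), 1.67-fold higher at 10 mM (0.74 ± 0.13, adjusted p = 0.0491), and 0.74 ± 0.09 higher averaged over glucose (adjusted p = 0.00664). The averaged call held in 15 of 15 alternatives, with an adjusted p of up to 0.0356. The calls at single glucose levels were lost when any 1 of the 8 arrays was left out, with an adjusted p of up to 0.2 at 1 mM and 0.248 at 10 mM.

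Edem1 was the other gene called on average, 0.42 ± 0.09 higher in knockdown cells (adjusted p = 0.0432). On its arrays, given above, both knockdown values exceeded both control values at each glucose level. The call held in 4 of 15 alternatives and was lost without any 1 array (adjusted p of up to 0.155). Myotube markers moved with knockdown as well, with 10 of 11 called lower on average, and their part in the Pdia5 and Edem1 values was not tested.

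Genes of the same and neighbouring systems outside the 42 gave a mixed picture for glucose. Their lists were also chosen with earlier results of these data known. Of 36 other ER folding genes 9 fell and 3 rose in control cells (median -0.12), and 4 fell and 6 rose in knockdown cells (median -0.02). Fkbp11, a prolyl isomerase of secretory cells, fell in control cells (-1.90 ± 0.25), as did Prkcsh, the beta subunit of glucosidase II (-1.28 ± 0.14), while Selenom, a thioredoxin-like selenoprotein, rose by 0.82 ± 0.13. Of 27 other ERAD genes 7 fell and 1 rose in control cells (median -0.30) and 6 fell and 1 rose in knockdown cells (median -0.25). Selenos, a selenoprotein that links Vcp to the derlins, fell in control cells (-1.46 ± 0.19).

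A further list held 26 other genes of ER stress sensing and of the PERK arm. Its counts are therefore not those of the PERK arm alone. In control cells 15 fell and 1 rose (median -0.57), and in knockdown cells 11 fell and 1 rose (median -0.47). Ddit3, which encodes CHOP, fell 10.4-fold in control (-3.38 ± 0.13) and 10.1-fold in knockdown cells (-3.34 ± 0.13). Trib3, a target of ATF4 and CHOP, fell 20.2-fold and 19.9-fold, and Chac1, a glutathione-degrading enzyme also induced by ATF4, 8.75-fold and 6.66-fold. These genes are also known to respond to amino acid shortage and other stresses. The sensor gene itself, Eif2ak3, changed by -0.55 ± 0.15 in control (adjusted p = 0.0373) and by -0.49 ± 0.15 in knockdown cells (adjusted p = 0.0552), and Casp12, an ER-associated caspase, rose by 0.84 and 0.90.

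Chaperones of other compartments were listed for comparison. Of 34 cytosolic chaperones 2 fell and 2 rose in each cell type, with medians of -0.09 and -0.11, and the 2 that rose in control cells were Dnajb5 (1.01 ± 0.17) and Hspa4l (0.58 ± 0.14). Of 14 mitochondrial chaperones and proteases 9 fell and 0 rose in control cells (median -0.66), and 8 fell and 1 rose in knockdown cells (median -0.42). Lonp1, the matrix protease, fell in control cells (-1.56 ± 0.12), as did Hspa9, the mitochondrial Hsp70 (-1.31 ± 0.12). No test compared the lists with each other.

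**Figure D5:**
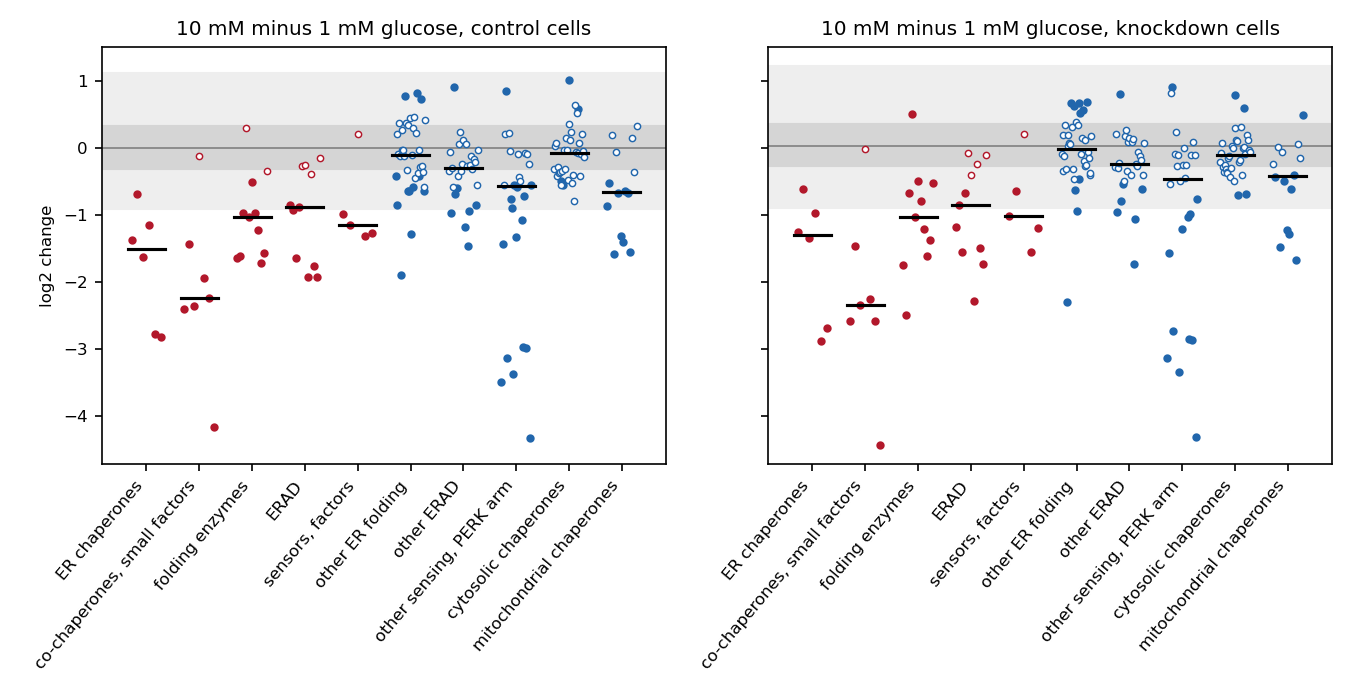
Log2 change from 1 mM to 10 mM glucose of each gene (points; filled, passed the test) in control (left) and knockdown cells (right), for the 5 role groups described here (red) and 5 lists of other genes (blue), with the median of each as a line. Grey bands hold 25% to 75% and 5% to 95% of all genes tested; the red medians lie between -2.35 and -0.85, and those of cytosolic chaperones at -0.09 and -0.11.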

How the data were processed

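The authors deposited log2 expression values for 41345 probe sets on 8 arrays, made with RMA and affy according to the submitters' processing notes; versions and genome build are not given in the sources used here. RMA fits arrays to a common distribution and compresses differences of dim probe sets. Precision is limited by the number of arrays.

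Gene names came from the platform annotation; probe sets with several genes or none were left out, and a gene with several took the brightest. Genes with a mean under the 40th percentile were not tested, which left 13308. One model with a mean per group over all 8 arrays was fitted with limma 3.58.1 in R 4.3.3 (4 residual and 3.36 prior degrees of freedom), with two-sided tests and Benjamini-Hochberg adjustment over those genes for each of 6 contrasts; calls were made at an adjusted p under 0.05. The fit was tested on simulated data.

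The members and lists were chosen with earlier results of these data known. Values on all arrays are given for Hspa5, Hsp90b1, Xbp1, Atf6 and Ern1, the 3 members per role with the largest mean glucose change, members called in a knockdown contrast, and up to 8 not lower in a glucose contrast; from other lists, Ddit3, Eif2ak3 and examples among the 3 called genes per direction with the smallest p. Alternatives changed the gene filter, array scaling, variance model, probe set rule, arrays in the fit and replicate block, and left out each array. Replicate numbers were not treated as pairs, since deviations of same-numbered arrays correlated at -0.038 to 0.108. Protein sequences were not used here.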

Additional observations from a re-analysis of the deposited data

How the results depend on the processing

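No value of the members changed direction past the threshold under any alternative, and the counts of members that fell with glucose stayed within 1.5 times the reported 32 and 33, at 29 to 32 in control and 26 to 33 in knockdown cells with 1 array left out. Of the calls, 28 of 32 in control and 26 of 34 in knockdown cells held in every alternative in which the gene was tested (16, or 15 for Manf, which the stricter filter leaves out). The small counts upward moved most. The 1 member that rose with glucose in knockdown cells became 0 with no gene filter, with arrays centred on their median, with the replicate block, with only the 2 groups compared, and with any array left out (0 to 0). The 1 higher with knockdown at 1 mM and the 1 at 10 mM each became 0 with no filter, the replicate block, only the 2 groups compared or any array left out (0 to 0), and 2 and 3 with an intensity trend and robust variance. The 2 higher with knockdown averaged over glucose became 1 with no filter, the replicate block, the mean of all probe sets or any array left out (1 to 1), 4 with the stricter filter and 7 with the trend and robust variance. With the replicate block 32 members fell in each cell type. Where no cause is given, the cause was not tested. Signal near background limits Manf and Derl3.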
